A study of Mus musculus with 6 samples.

Results

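The mRNAs described here encode the core of cAMP signalling through protein kinase A (PKA) and CREB in Min6, a mouse insulinoma line used as a model of the pancreatic beta cell. The 10 genes were taken by name from a list: the catalytic subunits Prkaca and Prkacb, the regulatory subunits Prkar1a, Prkar1b, Prkar2a and Prkar2b, the transcription factor Creb1, its coactivators Crtc1 and Crtc2, and the cAMP-activated exchange factor Rapgef4. They are 10 of 53379 genes in the count tables and 10 of 16929 genes with enough reads to be tested. Each of the 10 symbols matched a single gene identifier.

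The data are 6 RNA sequencing libraries of 1 cell line. The hnRNPK IP group holds 3 libraries of RNA recovered from lysate on beads with an antibody against hnRNPK, an RNA-binding protein that prefers single strands rich in C. The total RNA group holds 3 libraries of RNA extracted from the lysate itself. Both groups come from Min6 cells at passage 31 kept for 30 hours in 25 mM glucose with 500 µM palmitic acid, a treatment named glucolipotoxicity, so cells without that exposure do not enter the comparison. The question is which transcripts were over- or under-represented among RNA brought down with hnRNPK. No library from a control antibody was analysed here, so recovery with hnRNPK and recovery on beads or antibody alone cannot be told apart. The labels do not tell whether the 3 libraries of a group were separate cultures, so p-values measure only their spread, and this may be technical.

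In the resting PKA holoenzyme a dimer of regulatory subunits holds the catalytic subunits inactive, and cAMP frees them. The freed kinase phosphorylates CREB, which recruits coactivators. CRTC proteins are a second arm, held in the cytoplasm by phosphorylation and passing to the nucleus to bind CREB when that phosphate is removed. In beta cells cAMP rises after incretin hormones such as GLP-1 act on their receptors, and it strengthens insulin secretion through PKA and through the exchange factor Epac2, the product of Rapgef4.

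Total counts ranged from 38764925 to 52735957 per library, and a member had between 1685 and 209487 reads in a library. Levels are given as CPM, counts scaled to library size with TMM factors. Beta cell markers were abundant, with a summed level over 8 genes of 5706 to 7121 CPM in hnRNPK IP and 21409 to 30887 CPM in total RNA. Of these 8, 4 were lower in hnRNPK IP, among them the abundant Iapp and Ins2, and 4 were higher, among them Pdx1 and Nkx6-1. The 6 markers of other islet cells summed to 122.6 to 171.5 CPM in hnRNPK IP and 133 to 167 CPM in total RNA. Nearly all of it was Gcg, at 145 ± 24.6 CPM in hnRNPK IP and 151 ± 17.3 CPM in total RNA (SD, n = 3 each), while Hhex had 0 reads. A further 6 stromal, endothelial and immune markers, each with reads in some library, summed to 6.19 to 7.92 CPM in hnRNPK IP and 2.80 to 4.08 CPM in total RNA. The part of these markers in the results was not tested. Hnrnpk mRNA was at 141 ± 17.7 CPM in hnRNPK IP and 188 ± 9.56 CPM in total RNA, a log2 fold change of -0.42 ± 0.11 (SE; edgeR F test, adjusted p = 0.0114). It lost its call without total RNA replicate 2 (-0.35) and without total RNA replicate 3 (-0.37). This mRNA level does not check the precipitated protein.

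Of the 10 members, 7 were higher in hnRNPK IP, 2 were lower and Creb1 did not pass. Among all 16929 genes tested, 28.9% were higher and 33.6% were lower at the same threshold, a Benjamini-Hochberg adjusted p under 0.05 in the edgeR quasi-likelihood F test. Groups did not overlap for 9 members, against 71.4% of all genes tested. The median log2 fold change of the members, hnRNPK IP minus total RNA, was 1.53, and that of all genes tested was -0.07. The members and the pathway lists used further on were chosen with earlier results of these data known.

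**Figure D1:**
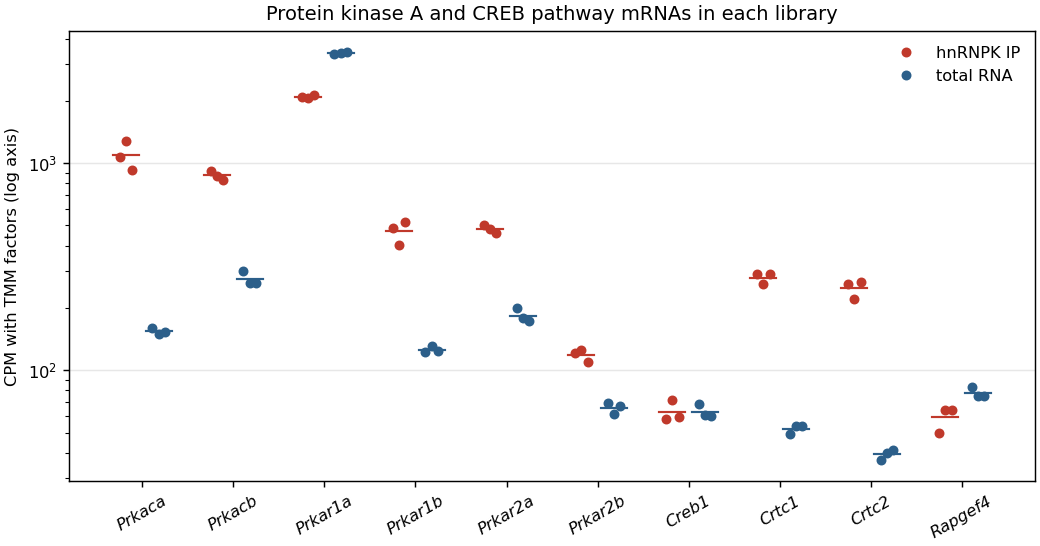
Level of each member in every library, as CPM on a log axis. Points are libraries, 3 of hnRNPK IP in red left of 3 of total RNA in blue, and lines are group means. For Prkaca the hnRNPK IP libraries lie between 924 and 1277 CPM and the total RNA libraries between 149 and 160.0 CPM, while the groups of Creb1 overlap.

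Because hnRNPK prefers C-rich RNA, the 30-base stretch with the most C in the longest annotated 3′ UTR is shown for the 4 members with the highest fold changes and then for the 3 members that were lower or did not pass. Sequences are the RNA-sense strand written as DNA, 5′ to 3′, from GENCODE M21 transcripts on GRCm38. Capitals mark runs of CCC.
Prkaca (chr8:83995927-83995956, plus strand): CCCaCCCtCCCCaaacaCCCtcctcactcc
Crtc2 (chr3:90263730-90263759, plus strand): CCCtgtCCCatcagtcttcatCCCttCCCC
Crtc1 (chr8:70385638-70385667, minus strand): ccatcctgCCCCCCtCCCCaccgccatCCC
Prkar1b (chr5:139017606-139017635, minus strand): gcttgaCCCCacatCCCtaaaccatccacc
Prkar1a (chr11:109667603-109667632, plus strand): CCCgcgcctcctgtgcctcctCCCCagtcc
Creb1 (chr1:64597609-64597638, plus strand): agacttctgCCCtccgtctccaccaCCCtc
Rapgef4 (chr2:72256506-72256535, plus strand): CCCCtcggggctacatcctgctttccaacc
The Prkaca stretch has 20 C of 30 and that of Crtc1 has 21. Among tested genes with a 3′ UTR of at least 100 bases, 10.3% and 6.32% hold a stretch with as many C. Crtc2 has 16 C and Prkar1b 15, which 48.0% and 61.3% of these tested genes match or exceed. The comparison does not allow for UTR length, which runs from 425 bases in Crtc2 to 7170 in Creb1. Prkar1a has 18 C, Creb1 16 and Rapgef4 14, so the richest single stretch does not separate these members in order of fold change. These windows are descriptions of the annotated sequence and not mapped binding sites.

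Both catalytic subunit mRNAs were higher in hnRNPK IP. Prkaca encodes the alpha catalytic subunit (ENSMUSG00000005469.10, chromosome 8, 83972993 to 83996443, plus strand). It had 1068, 1277 and 924 CPM in hnRNPK IP libraries 1, 2 and 3, against 160.0, 149 and 153 CPM in total RNA libraries 1, 2 and 3. Every IP library lay above every total RNA library, and the IP libraries differed more among themselves, with an SD of 178 CPM in hnRNPK IP and 5.51 CPM in total RNA. Prkaca was 7.08-fold higher in hnRNPK IP, a log2 fold change of 2.82 ± 0.13 (SE; edgeR F test, adjusted p = 2.02e-06). That value was above those of 98.98% of genes tested. A processed pseudogene, Prkaca-ps1, had 0 reads in all libraries.

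Prkacb encodes the beta catalytic subunit (ENSMUSG00000005034.15, chromosome 3, 146729574 to 146812990, minus strand). Its levels were 916, 869 and 831 CPM in the hnRNPK IP libraries and 301, 262.5 and 264 CPM in the total RNA libraries. The groups did not overlap, and the IP libraries lay close together. Prkacb was 3.16-fold higher in hnRNPK IP, with a log2 fold change of 1.66 ± 0.09 (edgeR F test, adjusted p = 3.47e-06).

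Because Prkaca and Prkacb differed in fold change, their relative abundance also differed between the groups. A share of reads within a library needs no scaling between libraries, so counts were divided by exonic length and expressed as a share of the family. Prkaca made up 80.4%, 83.8% and 79.7% of catalytic subunit reads per length in the hnRNPK IP libraries, against 65.2%, 66.7% and 67.0% in total RNA. The IP shares were all above the total RNA shares, by 14.98 percentage points on average. The difference was 18.6 points with the longest transcript as length and 19.5 without division by length. Before any such division Prkacb was above Prkaca in total RNA, at a mean of 276 against 154 CPM. The exact permutation test (two-sided) gave p = 0.1, the smallest that 3 libraries against 3 allow, and 0.1 after Benjamini-Hochberg adjustment over the 4 such quantities computed.

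The regulatory subunits did not move as 1 group. Prkar1a, Prkar1b, Prkar2a and Prkar2b encode the type I alpha, type I beta, type II alpha and type II beta subunits. Prkar1a was lower in hnRNPK IP, and the other three were higher.

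Prkar1a was the most abundant member in both groups (ENSMUSG00000020612.16, chromosome 11, 109649405 to 109669656, plus strand). It had 2086, 2058 and 2125 CPM in hnRNPK IP and 3365, 3395 and 3456 CPM in total RNA. Both groups were tight and well apart. Prkar1a was 1.63-fold lower in hnRNPK IP, with a log2 fold change of -0.70 ± 0.06 (edgeR F test, adjusted p = 3.01e-05). With library totals in place of TMM factors the value was -1.14. In that setting the median of all genes was -0.51, against -0.07 with TMM factors.

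Prkar1b, a subunit best known from neural tissue, had the largest fold change of the family (ENSMUSG00000025855.13, chromosome 5, 139017306 to 139150001, minus strand). Its levels were 484, 401 and 518 CPM in hnRNPK IP and 123, 131 and 123 CPM in total RNA. All IP libraries were above all total RNA libraries, and IP library 2 was the lowest of the IP group. The difference was 3.72-fold, a log2 fold change of 1.90 ± 0.11 (edgeR F test, adjusted p = 4.91e-06). An annotated transcript on the same strand, Gm15672, overlaps its exons. That gene had at most 1.27 CPM in a library, but reads from the shared exon parts cannot be told apart.

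Prkar2a and Prkar2b encode the type II subunits, which anchoring proteins tether to membranes and organelles. Prkar2a (ENSMUSG00000032601.13, chromosome 9, 108689314 to 108750436, plus strand) had 505.0, 483 and 459 CPM in hnRNPK IP and 199, 179 and 173 CPM in total RNA. Prkar2b (ENSMUSG00000002997.15, chromosome 12, 31958476 to 32061296, minus strand) had 120.4, 125 and 109.9 CPM in hnRNPK IP and 69.3, 61.6 and 67.1 CPM in total RNA. Neither gene's groups overlapped. The log2 fold change of Prkar2a was 1.39 ± 0.09 (edgeR F test, adjusted p = 6.72e-06). That of Prkar2b was smaller, 0.84 ± 0.10 (edgeR F test, adjusted p = 0.000118), and it was 0.41 with library totals alone.

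The make-up of the regulatory family therefore differed between the groups. Prkar1a accounted for 66.9%, 68.9% and 67.4% of regulatory subunit reads per length in hnRNPK IP, against 90.4%, 90.8% and 91.1% in total RNA. Prkar1b took 17.6%, 15.2% and 18.6% in hnRNPK IP, against 3.74%, 3.98% and 3.69% in total RNA. The Prkar1b shares did not overlap, and the exact permutation test (two-sided) gave the smallest possible p = 0.1. Prkar2a averaged 10.6% ± 0.630 of the family in hnRNPK IP and 3.32% ± 0.273 in total RNA, and Prkar2b 4.55% ± 0.418 and 2.08% ± 0.127 (SD, n = 3 each).

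Set against each other, catalytic subunit reads per length were 0.739, 0.886 and 0.639 times the regulatory ones in hnRNPK IP libraries 1, 2 and 3. In total RNA libraries 1, 2 and 3 the same ratio was 0.115, 0.104 and 0.104. The log2 ratio differed by 2.80, with no overlap between groups (exact permutation test, two-sided, p = 0.1, the smallest possible). The difference was 2.62 with the longest transcript as length and 2.45 without division by length. By exonic length Prkar1a was the larger part of the denominator and Prkaca that of the numerator in both groups. The part of Prkaca depends on the length used, since Prkacb has 8772 exonic bases but 4347 in its longest transcript. The ratio counts mRNA reads and not protein subunits.

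**Figure D2:**
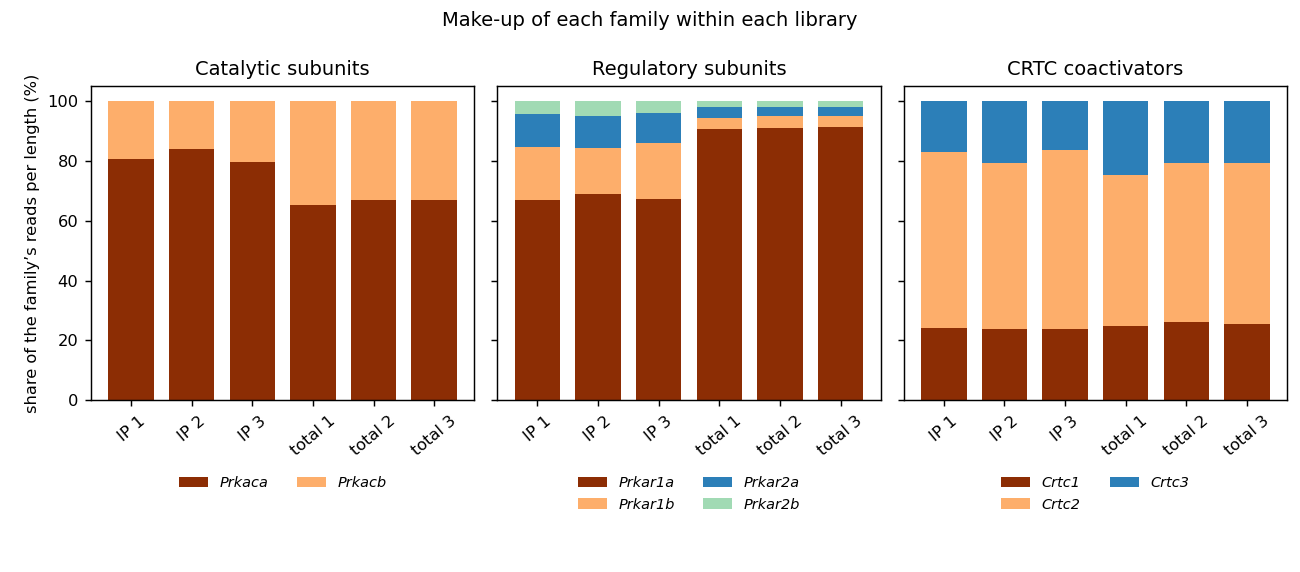
Share of each family's reads per exonic length (percent, y axis) within each library (x axis), hnRNPK IP left of total RNA. Prkaca fills 79.7% to 83.8% of the catalytic family in hnRNPK IP and 65.2% to 67.0% in total RNA, Prkar1a 66.9% to 68.9% of the regulatory family in hnRNPK IP and 90.4% to 91.1% in total RNA. Crtc2 fills 55.4% to 59.9% of the CRTC family in hnRNPK IP and 50.4% to 53.6% in total RNA.

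On the CREB side the factor and its coactivators parted. Crtc1 and Crtc2 mRNAs were several-fold higher in hnRNPK IP, and Creb1 mRNA had the same mean level in both groups. Creb1 encodes the transcription factor that binds cAMP response elements (ENSMUSG00000025958.14, chromosome 1, 64532645 to 64604548, plus strand). It had 58.0, 71.7 and 59.7 CPM in hnRNPK IP and 68.3, 60.8 and 59.9 CPM in total RNA. The groups overlapped, with the highest and the lowest of the 6 values both in hnRNPK IP. The log2 fold change was 0.003 ± 0.116 (edgeR F test, adjusted p = 0.987). Its sign depended on the scaling, and Creb1 passed as lower with library totals alone, at -0.43 (adjusted p = 0.0123), and with an offset for gene length, at -0.66 (adjusted p = 0.000166; range over all alternatives 0.000166 to 0.996).

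Crtc1 and Crtc2 encode CREB-regulated transcription coactivators, of which Crtc2 has been studied in beta cells as a sensor of glucose and cAMP. Crtc1 (ENSMUSG00000003575.13, chromosome 8, 70382355 to 70439579, minus strand) had 291, 260.4 and 290.1 CPM in hnRNPK IP and 49.2, 54.0 and 53.6 CPM in total RNA. Crtc2 (ENSMUSG00000027936.18, chromosome 3, 90254163 to 90264125, plus strand) had 261, 222 and 268 CPM in hnRNPK IP and 36.6, 39.7 and 41.3 CPM in total RNA. In both genes every IP library was far above every total RNA library, and IP library 2 was the lowest of its group. Crtc1 was 5.37-fold higher, with a log2 fold change of 2.42 ± 0.09 (edgeR F test, adjusted p = 1.29e-06). Crtc2 was 6.38-fold higher, with a log2 fold change of 2.67 ± 0.11 (edgeR F test, adjusted p = 1.52e-06). These values lay above those of 97.2% and 98.5% of genes tested.

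The third coactivator, Crtc3, was higher too, at 187 ± 12.9 CPM in hnRNPK IP and 39.9 ± 3.17 CPM in total RNA. The log2 fold change of Crtc3 was 2.23 ± 0.10. Within the family Crtc1 made up 24.0%, 23.8% and 23.7% of reads per length in hnRNPK IP and 24.8%, 26.3% and 25.5% in total RNA. The difference was -1.67 percentage points (exact permutation test, two-sided, p = 0.1, the smallest possible), and without division by length it was -0.70 with p = 0.5. Crtc2 made up 58.8%, 55.4% and 59.9% in hnRNPK IP and 50.4%, 52.9% and 53.6% in total RNA, shares that did not overlap, and their difference was not tested. The shares of Crtc3, 17.2%, 20.8% and 16.3% in hnRNPK IP and 24.9%, 20.8% and 20.9% in total RNA, overlapped. The relatives of Creb1 that bind the same element were lower in hnRNPK IP. Atf1 had 14.1 ± 1.74 CPM in hnRNPK IP and 36.3 ± 1.82 CPM in total RNA, a log2 fold change of -1.37 ± 0.13. Crem, which also encodes cAMP-inducible repressors, had 23.3 ± 3.24 CPM in hnRNPK IP and 46.0 ± 3.90 CPM in total RNA, a log2 fold change of -0.99 ± 0.14.

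Rapgef4 encodes Epac2, which activates Rap GTPases on binding cAMP and acts in granule exocytosis of beta cells (ENSMUSG00000049044.16, chromosome 2, 71981240 to 72257474, plus strand). It had 49.8, 64.3 and 64.0 CPM in hnRNPK IP and 82.6, 75.1 and 75.1 CPM in total RNA. All IP values were below all total RNA values, with IP library 1 apart from the other two. The log2 fold change was -0.39 ± 0.12, and Rapgef4 was lower by a narrow margin (edgeR F test, adjusted p = 0.0249). The call ended without IP replicate 1 (-0.31, adjusted p = 0.0664), without total RNA replicate 1 (-0.30, adjusted p = 0.118), without total RNA replicate 2 (-0.37, adjusted p = 0.0811) and without total RNA replicate 3 (-0.38, adjusted p = 0.0813; range over all alternatives 0.000629 to 0.118). With library totals alone the value was -0.82 and with an offset for gene length it was -0.61. An antisense transcript, Rapgef4os2, overlaps its exons and had at most 1.03 CPM, and without a known strand setting reads of such a pair cannot be told apart. The related Rapgef3, encoding Epac1, had 0, 0 and 11 reads in hnRNPK IP and 6, 12 and 8 reads in total RNA, and was not tested.

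**Figure D3:**
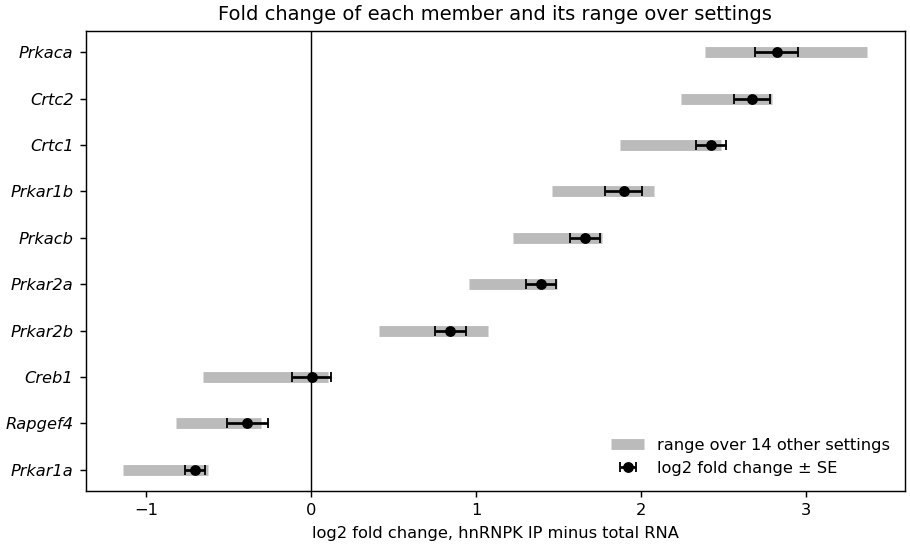
Log2 fold change of each member, hnRNPK IP minus total RNA (x axis), with its SE as error bars and its range over the 14 other settings as grey bars. The 7 members that were higher stay right of 0 in all of these settings, Prkar1a and Rapgef4 stay left of it, and the bar of Creb1, from -0.66 to 0.10, crosses it.

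Levels can be compared between genes only per length. In RPKM, here CPM divided by kilobases of exon, Prkar1a was highest in both groups, at 484 ± 7.77 RPKM in hnRNPK IP and 788 ± 10.7 RPKM in total RNA (SD, n = 3 each). Prkaca was next, at 438 ± 71.5 RPKM in hnRNPK IP and 61.9 ± 2.21 RPKM in total RNA. In hnRNPK IP the ranges of Prkar1a and Prkaca overlapped, while in total RNA they were far apart. After them in hnRNPK IP came Prkar1b, Prkacb, Prkar2a, Crtc2, Prkar2b, Crtc1, Rapgef4 and Creb1, at 123 ± 15.9 down to 4.59 ± 0.544 RPKM. Neighbours in this order did not overlap, though the lowest Prkar1b library (105.15 RPKM) barely exceeded the highest of Prkacb (104.45 RPKM). The order and overlaps hold for the union of exons alone. The longest transcript of Prkacb has 4347 bases against 8772 exonic bases, and that of Creb1 8364 against 13742.

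In total RNA, by the same exonic length, the order after Prkaca was Prkar1b, Prkacb, Prkar2a, Prkar2b, Rapgef4, Crtc2, Crtc1 and Creb1. Prkar1b at 32.98 ± 1.25 RPKM overlapped Prkacb at 31.5 ± 2.46 RPKM, which overlapped Prkar2a at 28.8 ± 2.12 RPKM. Crtc1 at 4.67 ± 0.238 RPKM and Creb1 at 4.58 ± 0.336 RPKM also overlapped. Rapgef4, at 8.89 ± 1.24 RPKM in hnRNPK IP and 11.6 ± 0.648 RPKM in total RNA, stood below both CRTC genes in hnRNPK IP and above both in total RNA. In such bulk libraries fewer cells with a transcript and less of it per cell cannot be told apart.

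The members also differed in the C content of their 3′ UTRs. The motif counted was CCC, on the transcript strand with overlapping matches included, per kb of the longest annotated 3′ UTR. Prkaca had 50.7 per kb over 1026 bases, Prkar1b 48.8 over 1353 bases, Crtc1 42.7 over 3769 bases and Crtc2 37.6 over 425 bases. These densities were above those of 97.1%, 96.5%, 94.4% and 91.7% of the 12983 tested genes with such a UTR, and these 4 genes had the 4 highest fold changes of the 10. Prkar2a had 14.5 per kb, Prkar1a 11.7, Prkacb 10.6, Creb1 6.83, Rapgef4 6.38 and Prkar2b 6.27, all below the median gene.

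Within the lower set the fold change did not follow this density. Prkacb, at 1.66, and Prkar1a, at -0.70, had nearly the same density. Across the 10 members the Spearman correlation between density and log2 fold change was 0.77, and between GC content of the 3′ UTR and log2 fold change it was 0.78. Across the 12983 genes the same values were 0.26 and 0.09. Members and genes share the 6 libraries and base composition, so these are descriptions. Among the 3246 genes with the highest density, 23.9 to 193 per kb, which include 4 members, 44.0% were higher in hnRNPK IP and 24.3% were lower. Among the 3246 genes with the lowest density, at most 8.85 per kb, which include 3 members, 17.0% were higher and 50.3% were lower. Of the 4 features computed, 3′ UTR length had the largest Spearman correlation with log2 fold change across all genes, 0.50, and exonic length had 0.37. Among members these values were -0.36 and -0.35, and with an offset for gene length Prkaca was at 3.37 and Crtc1 at 1.87.

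**Figure D4:**
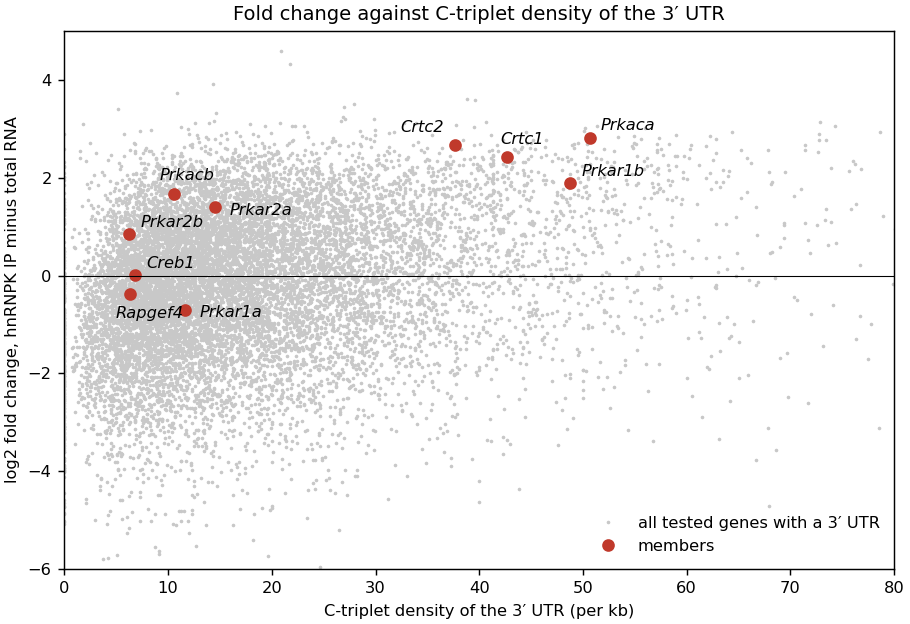
Log2 fold change, hnRNPK IP minus total RNA (y axis), against the number of C triplets per kb of 3′ UTR (x axis) for the 12983 tested genes with a UTR of at least 100 bases (grey) and the 10 members (red). Axes end at 80 per kb and at -6 and 5, leaving out 43 and 21 genes. Prkaca, Prkar1b, Crtc1 and Crtc2 lie to the right, at 37.6 to 50.7 per kb, with log2 fold changes of 1.90 to 2.82.

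The genes whose profile over the 6 libraries was closest to that of Prkaca, by Euclidean distance of centred log2 CPM among 4256 protein-coding genes with at least 50 CPM, were Zfhx2 (distance 0.163), Setd1b (0.170) and Dcx (0.171). Zfhx2 had 1194 ± 115 CPM in hnRNPK IP and 174 ± 6.06 CPM in total RNA. Closest to Prkar1a, the member with the lowest fold change, were Slc44a1 (0.0797), Stt3a (0.0827) and Erp44 (0.0832). Stt3a had 261 ± 2.37 CPM in hnRNPK IP and 412 ± 3.82 CPM in total RNA. With 2 groups of 3 libraries such likeness rests mainly on the size of the fold change.

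Upstream and downstream of the members, 8 lists held 91 other genes of the pathway, of which 82 were tested. Of these 48 were higher in hnRNPK IP and 19 were lower, 58.5% and 23.2%, beside 28.9% and 33.6% of all genes tested. Their median log2 fold change was 0.78. The shares of all genes tested, 28.9% higher and 33.6% lower, are also the background for each list below. With library totals alone 37 of the 82 were higher and 25 were lower. In that setting 3447 of all 16929 genes tested were higher and 7278 were lower.

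Among receptors and G proteins, 7 of 10 tested genes were higher and 2 were lower, with a median of 0.87. The inhibitory alpha subunit genes Gnai2 (2.25 ± 0.15) and Gnao1 (2.21 ± 0.08) had the highest log2 fold changes. Gnao1 had 2710 ± 54.3 CPM in hnRNPK IP and 585 ± 33.9 CPM in total RNA (SD, n = 3 each). The GIP receptor gene Gipr (-1.13 ± 0.19) and Gnai3 (-0.31 ± 0.09) were lower. Gnai3 did not pass whichever total RNA library was left out (-0.29 to -0.27) and with an offset for gene length (-0.002). Of 7 tested adenylyl cyclase genes, which make cAMP, 2 were higher and 2 lower, with a median of -0.30. That is 28.6% each, near the 28.9% and 33.6% of all genes tested. Adcy6 had 24.9 ± 3.57 CPM in hnRNPK IP and 51.8 ± 3.28 CPM in total RNA, and its log2 fold change of -1.06 ± 0.13 and that of Adcy7 (-1.18 ± 0.22) were the lowest. Adcy9 (0.79 ± 0.13) lost its call with library totals alone, at 0.35. Adcy5 (1.92 ± 0.58), at 1.34 ± 0.487 CPM in hnRNPK IP and 0.352 ± 0.0598 CPM in total RNA, lost it there too, at 1.48, and whichever total RNA library was left out, at 1.83 to 2.07.

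Phosphodiesterases, which break cAMP down, had 9 of 13 tested genes higher and 0 lower, with a median of 1.40. The count of 0 is from the edgeR F test, which also gave 0 at an unadjusted p under 0.05, as did DESeq2 and limma-voom. With library totals alone 3 were lower and with an offset for gene length 2 were lower. Pde4a was at 31.9 ± 2.35 CPM in hnRNPK IP and 7.30 ± 0.664 CPM in total RNA, a log2 fold change of 2.13 ± 0.14, and Pde4d was at 1.96 ± 0.28, or 1.33 with an offset for gene length. The lowest values were those of Pde4c (-0.58 ± 0.35) and Pde7a (-0.04 ± 0.11), which did not pass. Both were lower with library totals alone, at -1.02 and -0.48. Pde4c was also lower without IP replicate 2, at -0.84, and Pde7a with an offset for gene length, at -0.36.

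A-kinase anchoring proteins tether PKA to sites in the cell. Of 16 genes 9 were higher and 3 lower, with a median of 0.73. Wasf1, an anchoring protein of the actin machinery, had 170.0 ± 13.6 CPM in hnRNPK IP and 31.9 ± 1.52 CPM in total RNA, a log2 fold change of 2.41 ± 0.10. Akap13 followed at 2.20 ± 0.16, or 1.35 with an offset for gene length. The nuclear Akap8 was lower, at -1.05 ± 0.09, and Akap3, at -0.99 ± 0.53, did not pass but was called lower with library totals alone, at -1.43. Of the 3 genes for PKA inhibitor peptides, Pkia was higher (1.39 ± 0.09), Pkig was lower (-1.26 ± 0.31) and Pkib did not pass (0.32 ± 0.21). Pkib was called higher without IP replicate 2, at 0.48.

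Among CREB relatives, coactivators and the kinases and phosphatases that act on CRTC proteins, 9 of 12 were higher and 3 lower, with a median of 1.16. Sik2, a kinase that holds CRTC proteins in the cytoplasm, had 60.3 ± 15.1 CPM in hnRNPK IP and 11.5 ± 1.78 CPM in total RNA, a log2 fold change of 2.39 ± 0.21. Stk11, which encodes the LKB1 kinase that activates the SIK kinases, had 57.6 ± 5.20 CPM in hnRNPK IP and 165 ± 0.871 CPM in total RNA and was the lowest, at -1.52 ± 0.10. In the Epac and Rap list 4 of 7 tested genes were higher and 2 lower, with a median of 0.93. Pclo (2.70 ± 0.17) and Rims2 (1.57 ± 0.13), which encode active zone proteins that bind Epac2, were higher, and with an offset for gene length Pclo was at 1.82. The Rap GTPase genes Rap1a (-1.11 ± 0.14) and Rap1b (-1.22 ± 0.08) were lower, and an offset for gene length took them to -0.64 and -0.81.

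Genes known as CREB targets went both ways, with 9 of 17 higher and 7 lower and a median of 0.39. The clock gene Per1 had 297 ± 33.2 CPM in hnRNPK IP and 47.4 ± 6.06 CPM in total RNA, a log2 fold change of 2.65 ± 0.13, and the nuclear receptor gene Nr4a3 was at 2.14 ± 0.14. Gadd45a, at -2.10 ± 0.21, and Id1, at -2.52 ± 0.37, were lowest. Id1 had 2.79 ± 1.39 CPM in hnRNPK IP and 15.9 ± 1.42 CPM in total RNA. With an offset for gene length Gadd45a was at -1.19 and Id1 at -1.37. Pde4d, Crem and Sik1 belong to this list as well as to another. The values compare RNA recovered in the IP with RNA in the lysate and are not a measure of transcription.

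**Figure D5:**
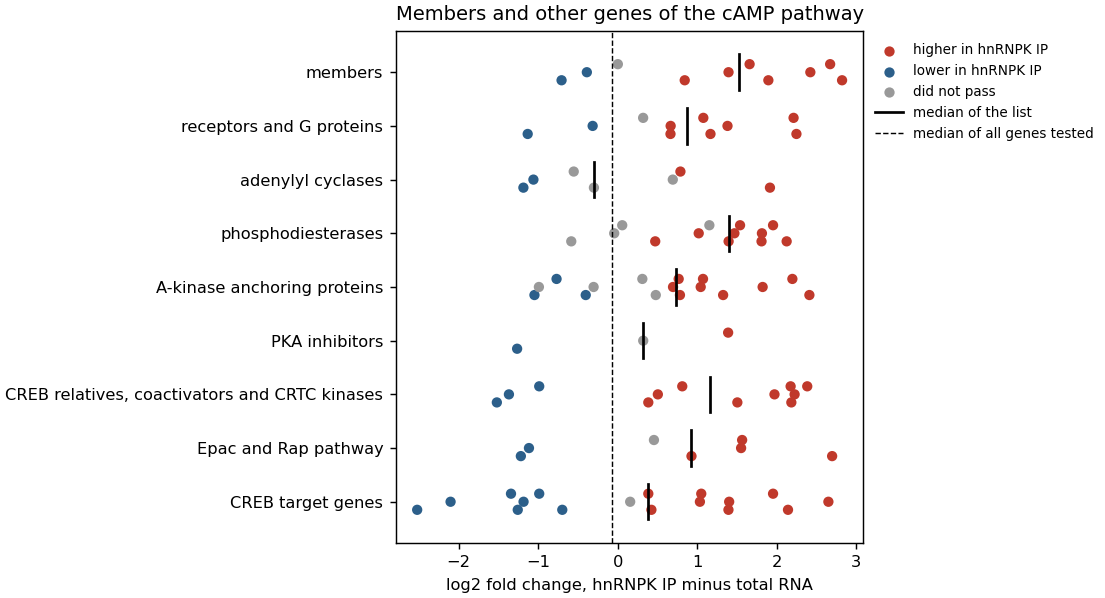
Log2 fold change, hnRNPK IP minus total RNA (x axis), of the members and of the tested genes of the 8 pathway lists (rows). Points are genes, red where higher and blue where lower in hnRNPK IP at adjusted p under 0.05 and grey otherwise, black bars are list medians and the dashed line is the median of all genes tested, -0.07. The medians run from -0.30 for adenylyl cyclases to 1.53 for the members, and all lists but the phosphodiesterases hold genes that were lower.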

How the data were processed

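The authors deposited 1 table of raw read counts per gene for each library. Reads were aligned to mm10 with TopHat2 and counted with featureCounts, per the submitters' processing notes. The sources used here do not give versions, annotation release, strand setting or the treatment of multiply aligned reads. Of 53379 genes, 53274 matched GENCODE M21 (GRCm38), which supplied symbols, coordinates, exonic lengths (union of exons) and transcript sequences, and 105 did not, with up to 0.0237% of the counts. Even numbers made up 58.6% to 68.7% of the counts between 1 and 20, so halved counts were tried.

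Groups were compared with edgeR 4.0.16 in R 4.3.3 (TMM factors, filterByExpr with a minimum count of 10 and minimum total of 15, glmQLFit and glmQLFTest on the group alone), with Benjamini-Hochberg adjustment over all 16929 genes. CPM and RPKM use the TMM factors. The SE of a log2 fold change is its size divided by the square root of F. Shares within a library were compared with exact permutation tests in scipy 1.17.1. Alternatives were DESeq2 1.42.0 and its size factors, limma-voom (limma 3.58.1), library totals alone, no filter, halved counts, an offset for gene length (lowess in each library), the replicate number as a block, and each library left out in turn. Chi-square over degrees of freedom was 6.38 to 125 between libraries of a group, above counting noise, so all libraries were kept apart as deposited.

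Members and lists were chosen with earlier results of these data known. Named genes were all members, Crtc3, Atf1, Crem, Rapgef3, Hnrnpk, the 2 highest and 2 lowest log2 fold changes of each pathway list, and the 3 protein-coding genes with an established symbol nearest to the highest and lowest member. Marker genes and Zfhx2 and Stt3a serve as checks or examples.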

Additional observations from a re-analysis of the deposited data

How the results depend on the processing

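All 7 members called higher in hnRNPK IP were called in each of the 14 alternatives. The number called lower, 2, ranged from 1 to 2 when single libraries were left out and was 3, Creb1 included, under an offset for gene length or under library totals. Library totals alone shifted the median of all genes by -0.43 and took the share of calls that were higher to 32.1%, against 46.3% with TMM factors, and the offset for gene length shifted the median by 0.20. The log2 fold change of Creb1 was -0.43 with library totals alone, -0.029 without a filter, -0.0059 with limma-voom, -0.66 with the offset and -0.10 to 0.10 with single libraries left out. Pde7a was at 0.0011 with DESeq2 and with its size factors, and at -0.127 to 0.0435 with single libraries left out. Pkib was at -0.24 with the offset and -0.11 under library totals alone. The cause of these changes was not tested. With the replicate number as a block, 1 member was called lower, since Rapgef4 had an adjusted p = 0.0541 in edgeR. In that setting Creb1 was at -0.001, Adcy5 did not pass, and the others of the 43 named genes recomputed kept their call. The deviations of libraries with the same number correlated at 0.000874, -0.0709 and 0.12, and of those with unlike numbers at -0.189 to 0.138. With 3 libraries a group these values cannot tell whether the numbers pair the libraries. Of the 43 named genes recomputed, which leave out Rapgef3 and the genes of similar profile, 33 kept direction and call in all 14 alternatives. The shares and the subunit ratio kept their direction throughout. With 3 libraries a group, the spread among IP libraries limits precision, and gene counts show no isoforms.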

Other observations

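Some cAMP pathway genes differed widely among the IP libraries, and these were picked after their values were seen. The GLP-1 receptor gene Glp1r had 219, 299.5 and 170.1 CPM in hnRNPK IP libraries 1, 2 and 3, against 109.8, 74.8 and 79.4 CPM in total RNA libraries 1, 2 and 3. Crebbp, which encodes the CREB-binding coactivator, had 191, 321 and 123 CPM in hnRNPK IP and 70.1, 44.2 and 47.5 CPM in total RNA. In both genes IP library 2 was highest and IP library 3 lowest, the order also seen for Prkaca, whereas Prkar1b, Crtc1 and Crtc2 had their lowest IP value in library 2. The IP and total RNA groups of Glp1r and Crebbp did not overlap despite this spread, and both genes were higher in hnRNPK IP (edgeR F test, adjusted p = 0.000989 and 0.00135).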
